A study of Mus musculus with 21 samples.

Results

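The share of transcripts that came from antisense genes was measured in single cells of the mouse tibialis anterior, a muscle of the lower leg, before and after notexin injury. The share is the percent of the unique molecular identifiers (UMIs, the tags that mark single captured transcripts) of a cell that were assigned to genes of the antisense class, a value that was deposited for each of 87822 cells from 21 samples. The values entered the comparisons as the mean over the cells of a type in a sample, for each of the 23 cell types of the Harmony integration and wherever a sample held at least 10 cells of that type. This left 83655 cells in 423 of 478 combinations of type and sample, with 10 to 3081 cells each (median 89), and 3897 cells carried no Harmony label. The rule used no measured value of the share.

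Every sample was from 1 female C57Bl/6J mouse of 20 months, and both tibialis anterior muscles of the injured mice had been injected with notexin, a toxin from snake venom that kills muscle fibers while stem cells survive to repair them. There were 4 uninjured mice and 17 injured ones, of which 4 were taken 1 day after injury, 3 after 2 days, 4 after 3.5 days, 3 after 5 days and 3 after 7 days (days post-injury, dpi), and no sham-injected group was among the samples. Dissociated cells were captured with 10x Chromium v3 chemistry, and only the samples of aged mice were analysed here. Summed over cells, the samples held 5602464 to 70730171 UMIs, of which 6300 to 43300 were antisense UMIs. A pair of samples shared at most 0.418% of their cell barcodes over the 210 pairs. Cell types and myogenic states are the deposited labels and were not compared with marker genes, since values of single genes were not analysed here.

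Antisense genes are non-coding loci that are transcribed from the strand opposite to another gene, often across its exons or from a promoter shared in divergent orientation. Some act on their partner in cis, by transcriptional interference, by recruiting chromatin modifiers or by pairing with its messenger RNA, and most have no known function. Many are kept in the nucleus and are expressed at low levels. In the GENCODE M21 annotation of GRCm38, the assembly that mm10 names, 2959 genes are of the biotype antisense, against 5854 long intergenic non-coding RNA (lincRNA) genes and 21951 protein-coding genes, and 2731 of them (92.3%) overlap a protein-coding gene on the other strand. Which genes made up the deposited antisense share was not given in the sources used here, so these counts describe the class and not the gene list behind the values. The sequencing kit reads the transcript's strand, so a UMI of an antisense gene can in principle be told from one of its partner. That holds only as far as the annotation and the strand of the read are right. In the libraries, 0.8% to 1.1% of reads mapped antisense to an annotated gene. Whether such reads of partner genes entered the share was not tested.

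Antisense transcripts were a small part of the transcriptome in every cell type. Over all cells the share averaged 0.0793%, or 79.3 UMIs in 100000, with a median of 0.0666% and a highest value of 1.23%. A cell held a median of 3.99 antisense UMIs, and 6245 cells (7.11%) held none, so the value of a single cell was coarse and means over cells were compared. For scale, lincRNAs made up 1.65% of the UMIs of a cell, 20.8 times the antisense share, and protein-coding genes 91.3%. Within a type and sample, the variance of antisense UMIs between cells was 1.18 to 2.17 times that of pure counting error (median over samples, by type). Of the variance of the 423 means, cell type alone accounted for 51.2%, sample alone for 18.7% and both in an additive fit for 67.8%.

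The antisense share differed between cell types. Each type was compared with the median of the other types in the same sample, by a two-sided exact sign-flip test over samples with Benjamini-Hochberg adjustment over the 23 types. Of these, 9 were higher (39.1%) and 8 were lower (34.8%), together 73.9%, at an adjusted p under 0.05. The samples held 11 to 18 types in uninjured mice and 16 to 23 after injury, so the median was taken over a changing set of types. Against the median of the 6 types found in every sample, a comparison added after the data were seen, 4 types were higher and 12 lower, since type IIb myonuclei, pro-remodeling fibro/adipogenic progenitors (FAPs), B cells, T cells and neural cells were no longer called and arterial cells, adipogenic FAPs, Cxcl10+ monocytes and NK cells were lower. The 6 types were smooth muscle, capillary and arterial cells, pro-remodeling and adipogenic FAPs and neural cells, with no immune type. Except for arterial cells and adipogenic FAPs, they were themselves called higher. For arterial cells in uninjured mice, this reference stood at 0.108%, and that of all other types at 0.0971%. The counts of higher and lower types thus depend on the reference. Neutrophils, type IIx myonuclei and vascular smooth muscle had the highest levels, and patrolling monocytes, inflammatory monocytes and Cx3cr1-high M2 macrophages the lowest.

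Neutrophils, the first leukocytes to enter damaged muscle, stood at 0.0622% in the lowest sample, 0.121% in the median sample and 0.200% in the highest, with a mean of 0.123% ± 0.0357 (SD, n = 17). They were above the other types of their sample in 16 of 17 samples, by 0.0428 percentage points on average (adjusted p = 0.00108, exact sign-flip test). The sample below was the only uninjured one with enough neutrophils. The neutrophil share was highest at 1 dpi, at 0.200%, 0.192%, 0.143% and 0.143% in the 4 mice, averaged 0.133% at 2 dpi and 0.113% at 3.5 dpi, and was 0.0958% and 0.102% at 5 and 7 dpi. No neutrophil value at 5 or 7 dpi reached the lowest value of 1 dpi. Neutrophils had few UMIs, at 3153 per cell, and thus about 3.50 antisense UMIs each.

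Type IIx myonuclei carry a label named for the nuclei of a fast fiber type, but the samples were dissociated cells and not isolated nuclei. The paper states that most nuclei of mature fibers are lost in cell isolation, and what this label holds was not tested. Type IIx myonuclei ranged from 0.0889% through a median of 0.112% to 0.132%, with a mean of 0.111% ± 0.0113 (SD, n = 19). They were above the other types in 19 of 19 samples, by 0.0269 percentage points (adjusted p = 1.75e-05, exact sign-flip test). This was the smallest SD among the 9 types that were called higher. Type IIb myonuclei, named for the fastest and most glycolytic fibers of this muscle, averaged 0.0989% ± 0.0135 (SD, n = 20). They were above the other types in 18 of 20 samples.

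Smooth muscle cells, the contractile cells of the vessel wall, ranged from 0.0766% through a median of 0.104% to 0.151%, with a mean of 0.110% ± 0.0218 (SD, n = 21). They were above the other types in 19 of 21 samples, by 0.0271 percentage points (adjusted p = 3.56e-05, exact sign-flip test). Their highest values were at 3.5, 5 and 7 dpi, where the share reached 0.151%, 0.149% and 0.151%, but the lowest samples of these time points stood at 0.0953%, 0.0967% and 0.107%.

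At the other end were patrolling monocytes, which the paper describes as negative for Cx3cr1. They ranged from 0.0424% through a median of 0.0516% to 0.0850%, with a mean of 0.0559% ± 0.0114 (SD, n = 17). They were below the other types in 16 of 17 samples, with a mean difference of -0.0273 percentage points (adjusted p = 7.8e-05, exact sign-flip test). No uninjured sample held enough patrolling monocytes, so all 17 samples were of injured mice. Inflammatory monocytes, which enter tissue from blood and give rise to macrophages, ranged from 0.0508% through 0.0579% to 0.0806%, with a mean of 0.0620% ± 0.00957 (SD, n = 19), and were below the other types in all 19 samples, with a mean difference of -0.0221 percentage points (adjusted p = 1.75e-05, exact sign-flip test). Cx3cr1-high M2 macrophages, cells of the repair phase that take up debris and secrete growth factors, ranged from 0.0407% through 0.0633% to 0.0796%, with a mean of 0.0627% ± 0.00983 (SD, n = 18). They were below the other types in all 18 samples, with a mean difference of -0.0203 percentage points (adjusted p = 2.51e-05, exact sign-flip test). The 6 types with the highest and lowest means kept their direction and their call in each of the 13 other settings, the fixed set of 6 types included, and without each sample.

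Levels followed lineage only in part. Of the 7 myeloid types, 5 were lower, namely both monocytes above, Cx3cr1-high and Cx3cr1-low M2 macrophages (0.0636%) and dendritic cells (0.0661%), the antigen-presenting cells of the tissue. The Cxcl10+ monocytes (0.0807%), which express an interferon-induced chemokine, did not pass the test, and neutrophils were the 1 myeloid type that was higher. Among lymphocytes, B cells (0.0944%) and T cells (0.0912%) were higher, and NK cells (0.0780%) were not called in either direction.

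FAPs, mesenchymal cells that build matrix and support repair, were split. The pro-remodeling FAPs (0.0946%) were higher than the other types and stem FAPs (0.0687%) were lower in all 19 samples, while adipogenic FAPs (0.0862%) did not pass the test. Endothelial cells were split as well. Capillary cells (0.103%) were higher in 20 of 21 samples, venous cells (0.0804%) were lower and arterial cells (0.0869%) were not called. Of the remaining types, neural cells (0.0894%) were higher, tenocytes (0.0908%), the fibroblasts of tendon, and MuSCs (0.0857%), the muscle stem cells, were not called, and myoblasts and progenitors (0.0682%), their dividing and differentiating progeny, were lower in all 10 samples. In the same exact test, the call of venous cells was lost without any 1 of 13 samples (adjusted p up to 0.0893). By that exact test, neural cells were not called without uninjured replicate D (adjusted p = 0.0511), nor T cells without 3.5 dpi replicate B (adjusted p = 0.0508).

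Types next to each other in this order could not be told apart. Of the 22 pairs of types next to each other in the order of means, 0 (0%) differed at an adjusted p under 0.05 in exact sign-flip tests, and 2 had an unadjusted p under 0.05. In these exact tests, B cells were 0.00853 percentage points above T cells (higher in 10 of 13 samples, adjusted p = 0.529), and inflammatory monocytes 0.00505 above patrolling monocytes (13 of 17 samples, adjusted p = 0.529). One pair passed without 1 dpi replicate B, and 1 without 7 dpi replicate A.

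The share also moved with how many transcripts a cell held. When the cells of a type and sample were split at their median UMI count, those with fewer UMIs had the higher antisense share in 14 of 23 types (60.9%) and the lower share in 0 (0%), by exact sign-flip tests at an adjusted p under 0.05. The lower share was found in 0 types at an unadjusted p under 0.05 too. The difference was largest in smooth muscle, at 0.126% against 0.0948% (n = 20), in neutrophils, at 0.146% against 0.116% (n = 13), and in T cells, at 0.107% against 0.0785% (n = 16). In both types of myonuclei it was small, at 0.00159 (IIb) and 0.00603 (IIx) percentage points. Across the 23 types the mean share correlated with UMIs per cell at a Spearman's rho of -0.474, as a description over types that share libraries. Among cells of 3000 to 10000 UMIs, neutrophils (0.113%), type IIx myonuclei (0.115%) and smooth muscle (0.115%) still had the highest means and patrolling monocytes (0.0601%) the lowest, and 12 types rather than 17 were called. The part of sequencing depth and of RNA content per cell in the share was not tested.

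The antisense share was then followed along the myogenic states, which the authors had assigned from the position of cells on a trajectory of muscle cells. In that course quiescent MuSCs leave their niche, become activated, commit to differentiation as myoblasts and fuse into multinucleate fibers. The label of myonuclei names the nuclei of such fibers, although the samples held dissociated cells and not isolated nuclei. The share was lower in each later state from quiescent MuSCs to fusing myocytes, although the last of these steps did not pass the test, and it was highest in myonuclei. The means were 0.0803% ± 0.0218 (SD, n = 14) in quiescent MuSCs, 0.0741% ± 0.0203 (n = 10) in activated MuSCs, 0.0646% ± 0.0141 (n = 8) in committed myoblasts, 0.0591% ± 0.0123 (n = 10) in fusing myocytes, 0.0999% ± 0.0134 (n = 20) in type IIb and 0.111% ± 0.0111 (n = 19) in type IIx myonuclei.

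**Figure D1:**
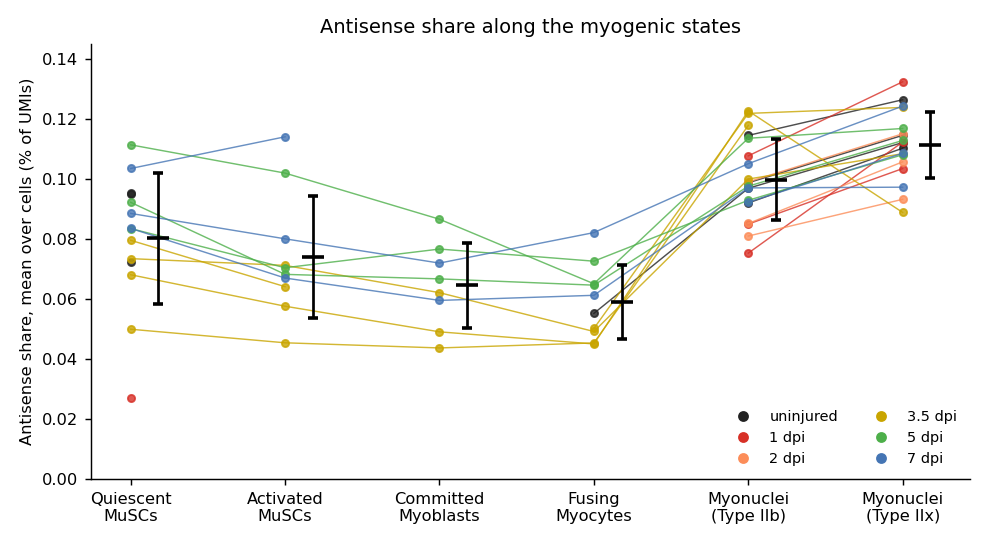
Antisense share (percent of UMIs, mean over cells) in the 6 myogenic states. Each point is 1 sample with at least 10 cells of the state, coloured by time point, lines join neighbouring states of the same sample, and the black ticks with bars are the mean and 1 SD over samples. All 10 samples with both states rose from fusing myocytes to type IIb myonuclei, and 18 of 19 were higher in type IIx than in type IIb.

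Of the 15 pairs of states, 14 (93.3%) differed at an adjusted p under 0.05 in exact sign-flip tests over the samples that held both. In these exact tests, quiescent MuSCs were above activated MuSCs by 0.00936 percentage points (9 of 10 samples, adjusted p = 0.0195, or 0.00594 and 0.102 with the median over cells), above committed myoblasts by 0.0168 (8 of 8, adjusted p = 0.0117) and above fusing myocytes by 0.0234 (10 of 10, adjusted p = 0.00732). By the same exact test, activated MuSCs were 0.00569 above committed myoblasts (7 of 8, adjusted p = 0.0419, or 0.0502 with summed UMIs) and 0.0101 above fusing myocytes (7 of 9, adjusted p = 0.0406). Committed myoblasts and fusing myocytes did not differ past the threshold of the exact test (0.00388, 5 of 8, adjusted p = 0.289), but did with the median over cells (0.0083, adjusted p = 0.0451) and without ribosomal protein UMIs (0.00839, adjusted p = 0.0352). Fusing myocytes were below type IIb myonuclei in all 10 shared samples, with a mean difference of -0.0474 (adjusted p = 0.00732, exact test), and type IIb was below type IIx in 18 of 19, with a mean difference of -0.0124 (adjusted p = 0.00732, exact test). The remaining 7 called pairs each set a type of myonuclei above an earlier state.

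At 3.5 dpi, where these states were best covered, quiescent MuSCs stood at 0.0796%, 0.0735%, 0.0682% and 0.050% in replicates A to D, and fusing myocytes at 0.0503%, 0.0493%, 0.0451% and 0.0454%. All 4 replicates were thus lower in fusing myocytes. At 5 dpi the quiescent MuSCs held 0.0835%, 0.0923% and 0.111% and the fusing myocytes 0.0727%, 0.0647% and 0.0652%, again lower in every mouse. The lowest value of any state was that of quiescent MuSCs of 1 dpi replicate C, 0.0272%, which stood alone at that time point and in no pair with another early state.

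Other properties of the cells moved along the same axis. UMIs per cell rose from 11363 in quiescent MuSCs through 18945 and 23065 to 23848 in fusing myocytes and were 3784 and 3942 in type IIb and IIx myonuclei, and the ribosomal protein share fell from 22.7% to 15.8% and on to 7.99% and 8.10%. Myoblasts and progenitors with fewer UMIs had a share of 0.0747%, and those with more UMIs 0.0617% (9 of 10 samples, adjusted p = 0.00749, exact sign-flip test). Among cells of 8000 to 30000 UMIs, a window chosen after the data were seen, only quiescent and activated MuSCs shared enough samples, and the former were 0.00224 percentage points higher (exact sign-flip test, adjusted p = 0.250). With a stricter filter on cells, 0 of 12 testable pairs passed, with the lowest adjusted p at 0.0527 and 7 pairs at an unadjusted p under 0.05. Under that filter quiescent MuSCs were 0.00903 above activated MuSCs, 0.0176 above committed myoblasts and 0.0203 above fusing myocytes, and the difference of type IIb from type IIx myonuclei was -0.0129, while that of committed myoblasts from fusing myocytes turned to -0.00124. The step from activated MuSCs to committed myoblasts lost its call without any 1 of 3.5 dpi replicates B, C and D, 5 dpi replicates B and C, and 7 dpi replicates A and B (adjusted p up to 0.0837).

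lincRNA genes, the other non-coding class with a deposited share, gave a yardstick for the antisense share. In 21 types the antisense share was 2.66% to 7.09% of the lincRNA share, and type IIx and IIb myonuclei were apart, at 69.6% and 63.1% on average over samples. Their lincRNA share was only 0.231% and 0.230%, against 1.07% to 3.39% in the other types, while their antisense share was among the highest. The paper reports more detection of noncoding RNA in single-nucleus than in single-cell preparations, and these were dissociated cells labelled as myonuclei. On the log2 scale the ratio of both shares was 3.73 ± 0.89 (SD, n = 19) above the median of the other types in type IIx myonuclei and 3.57 (n = 20) above it in type IIb, in every sample (adjusted p = 2.19e-05 for both, exact sign-flip test).

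**Figure D2:**
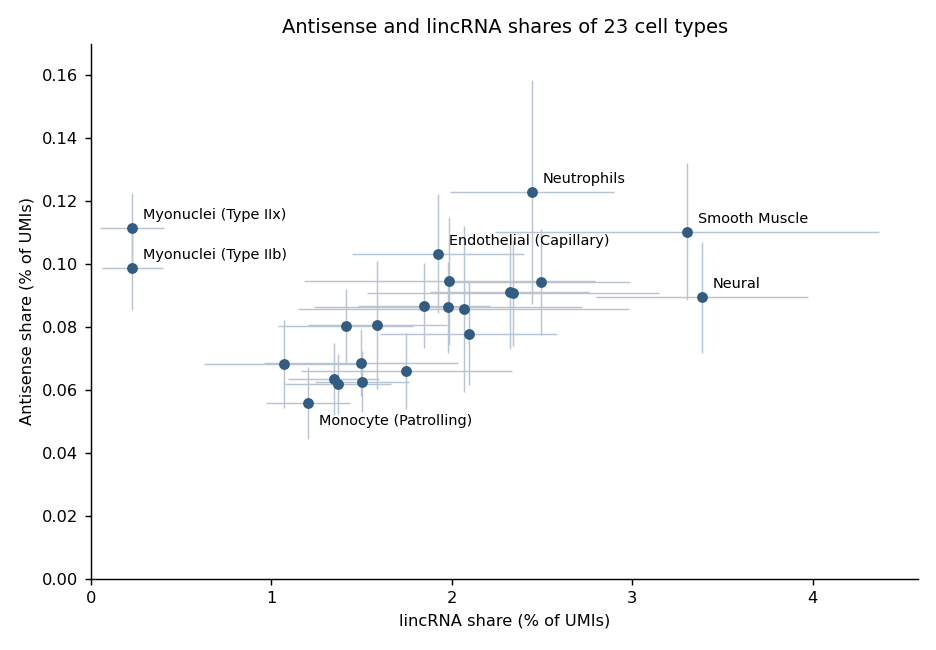
Antisense share against lincRNA share (both percent of UMIs), 1 point for each of 23 cell types, with bars of 1 SD over samples in both directions. Both types of myonuclei lay at a lincRNA share of 0.23% and an antisense share of about 0.1%, apart from the cloud of the other types.

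In all, the ratio was higher in 7 types (30.4%) and lower in 6 (26.1%), together 56.5%. Besides the myonuclei, myoblasts and progenitors (log2 difference 0.57, 10 of 10 samples), venous (0.40, 19 of 19) and capillary (0.29, 18 of 21) endothelial cells, pro-remodeling FAPs (0.16, 14 of 21) and Cxcl10+ monocytes (0.13, 12 of 18) had more antisense for their lincRNA. Neural cells had the least, with a log2 difference of -0.80 in 21 of 21 samples and the highest lincRNA share (3.39%). Smooth muscle (-0.41), NK cells (-0.32), dendritic cells (-0.26), T cells (-0.24) and Cx3cr1-high M2 macrophages (-0.17) were lower too. Venous endothelial cells and the myoblasts and progenitors, which were low in antisense share, were high in this ratio, and smooth muscle and T cells the reverse. The call of pro-remodeling FAPs was lost without any 1 of 13 samples (adjusted p up to 0.0954). Neutrophils, first in antisense share, were not called (0.08, 10 of 17 samples, adjusted p = 0.613, exact sign-flip test), with a lincRNA share of 2.44%.

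Injury was compared next, first over all cells of a sample. The mean share of the 4 uninjured mice was 0.0859%, 0.101%, 0.111% and 0.122%, or 0.105% ± 0.0153 (SD, n = 4). After injury it was 0.0832% ± 0.0170, 0.0726% ± 0.0125 and 0.0660% ± 0.00805 (n = 4, 3 and 4) at 1, 2 and 3.5 dpi, and then 0.0854% ± 0.0177 and 0.0938% ± 0.0106 (n = 3 each) at 5 and 7 dpi. The 4 samples of 3.5 dpi, at 0.0592% to 0.0754%, all lay below the lowest uninjured sample. The time points differed (p = 0.0222, permutation test of the F statistic). The 3.5 dpi mean was below that of uninjured mice, with a difference of -0.0389 percentage points (exact permutation p = 0.0286, the smallest that 4 against 4 mice allow, and 0.143 after adjustment over the 5 time points).

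**Figure D3:**
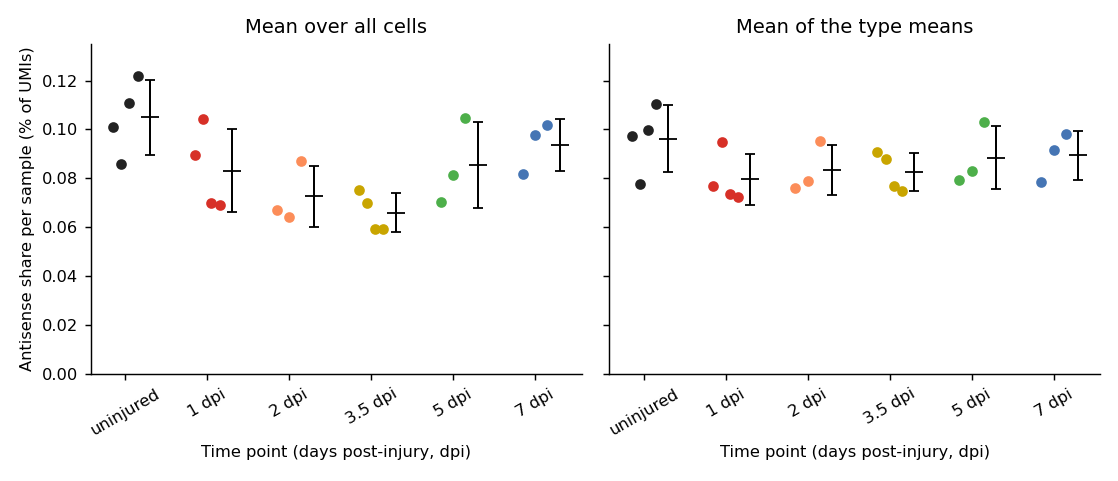
Antisense share per sample (percent of UMIs) at each time point, as the mean over all cells (left) and as the mean of the type means (right). In the latter each type present in the sample counts once, and the types present differed between samples. Each point is 1 mouse and the black ticks with bars are the mean and 1 SD. The left panel dips to 0.0660% at 3.5 dpi from 0.105% in uninjured mice, and in the right panel the means stay between 0.0795% and 0.0963%.

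When each cell type present counted once, uninjured mice averaged 0.0963% ± 0.0137 (SD, n = 4), and the means were 0.0795% ± 0.0105 (n = 4), 0.0833%, 0.0826%, 0.0884% and 0.0894% at the successive times after injury. The types present were not the same, at 11 to 18 in uninjured samples and 21 to 23 at 3.5 dpi. Uninjured replicates A and D held no monocyte, macrophage or dendritic type with at least 10 cells. The time points did not differ past the threshold (p = 0.370, permutation test). Sample effects from an additive fit of type and sample gave p = 0.579 in the same permutation test. The mix of cells had changed over these days. The 5 monocyte, macrophage and dendritic types that were low in antisense share made up 1.29% ± 0.71 of the labelled cells in uninjured mice and 67.7% ± 4.01 at 3.5 dpi. Capillary cells, smooth muscle and myonuclei, only some of the 9 types called higher, made up 63.8% ± 16.8 and 8.42% ± 4.05. The other types called higher or lower, neutrophils and pro-remodeling FAPs included, were not counted. The part of the cell mix in the difference between time points was not tested. Median UMIs per cell averaged 3906 in uninjured samples and 12086 at 3.5 dpi, and among cells of 3000 to 10000 UMIs the permutation test gave p = 0.190, with a 3.5 dpi difference of -0.0324. The difference between time points lost its call without uninjured replicate C (p = 0.0531) and without uninjured replicate D (p = 0.0577), both in the permutation test.

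Within single cell types, no change over time passed the test. Of 16 types with enough samples, 0 (0%) were called by the permutation test of the F statistic with Benjamini-Hochberg adjustment, and 2 (12.5%) had an unadjusted p under 0.05. Stem FAPs were nearest to a call (p = 0.00942, adjusted p = 0.151, permutation test). They held 0.0723% ± 0.00687 in uninjured mice (n = 4), 0.0501% ± 0.00618 at 1 dpi (n = 3) and 0.0744% ± 0.00350 at 3.5 dpi (n = 4). All 3 samples of 1 dpi lay below all uninjured ones. This was not particular to stem FAPs. Among the 16 types, pro-remodeling FAPs, neural cells, tenocytes and MuSCs also had every 1 dpi sample below every uninjured one. Without 5 dpi replicate A, stem FAPs passed the threshold (adjusted p = 0.0322, permutation test). Pro-remodeling FAPs held 0.112% ± 0.0129 in uninjured mice and 0.0681% ± 0.0161 at 1 dpi, where 3 of 4 samples stood at 0.0598% to 0.0604% and replicate B at 0.0923% (adjusted p = 0.198, permutation test). With the summed UMIs of all their cells in place of the mean over cells they passed (adjusted p = 0.0250, permutation test, 1 of 16 types). Neutrophils had too few uninjured samples for this test. With a minimum of 5 cells they could be included and were called together with Cxcl10+ monocytes (adjusted p = 0.0477 for both, permutation test, 2 of 19 types), neutrophils being 0.0791 percentage points higher at 1 dpi than in uninjured mice.

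Since samples differed in level, each type was also set against the median of the other types of its own sample over the time course, a comparison added after the data were seen. Of the 16 types, 2 (12.5%) varied. Arterial endothelial cells stood at -0.0126 percentage points from the other types in uninjured mice (n = 4, -0.0218 to -0.00482). At 3.5 dpi they were 0.0175 above the other types (n = 4, 0.0101 to 0.0279), a difference of 0.0301 without overlap between the groups. Arterial cells varied over the 6 time points (adjusted p = 0.00592, permutation test). They kept their call without any single sample. Over the same groups the median of the other types went from 0.0971% to 0.0797%, over 11 to 18 types in uninjured samples and 21 to 23 types at 3.5 dpi. Tenocytes were 0.0290 above the other types at 2 dpi (n = 3) and 0.00400 above in uninjured mice (n = 4), a difference of 0.0250. They varied over the 6 time points at an adjusted p of 0.0485 (permutation test). Their call was lost without any 1 of 12 samples (adjusted p up to 0.157). Against the 6 types found in every sample, 0 of 16 types varied at an adjusted p under 0.05 and 6 at an unadjusted one, with arterial cells at an adjusted p of 0.105 and tenocytes at 0.0894 (permutation test). In absolute share, arterial cells held 0.0845% ± 0.00829 in uninjured mice and 0.0972% ± 0.0138 at 3.5 dpi, and these ranges overlapped.

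Samples also differed from one another within a time point, and the differences moved with sequencing saturation, the percent of reads that repeat a transcript already seen. The type means of a sample were averaged over the types present, from 11 to 23 by sample. Over 21 samples, the mean of the type means correlated with saturation at Pearson's r = 0.748 (adjusted p = 0.00042) and Spearman's rho = 0.669 (adjusted p = 0.00272, permutation tests, adjusted over 12 values for 6 measures). Without the 2 samples farthest from the median saturation, r was 0.663. It was 0.649 over the 17 injured samples and 0.896 after the mean of each time point was removed from both measures. The saturation itself averaged 64.5% in uninjured samples and 41.1% at 3.5 dpi.

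**Figure D4:**
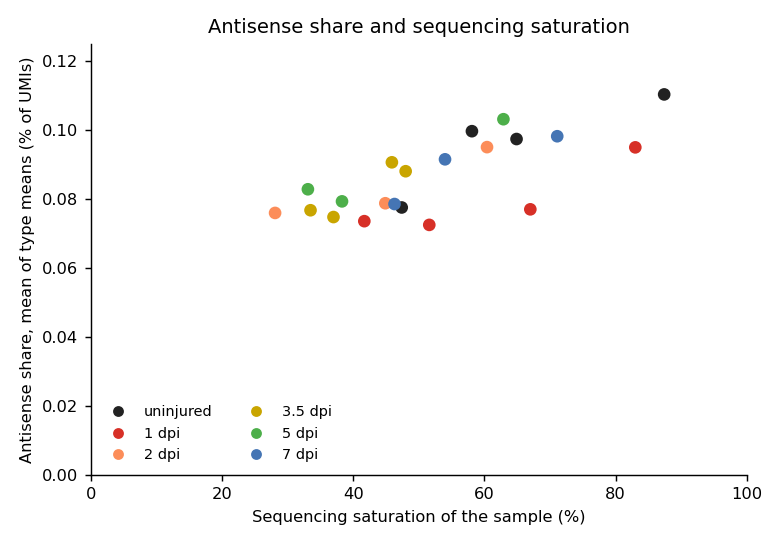
Mean of the type means of the antisense share (percent of UMIs) against sequencing saturation (percent), 1 point per sample, coloured by time point. Samples of higher saturation had higher shares (Pearson's r = 0.748 over 21 samples). The share was 0.0760% at the lowest saturation of 28.1%, over 22 types, and 0.110% at the highest of 87.4%, over 11 types. The sample effects of these samples in the additive fit of type and sample were 0.0752% and 0.103%.

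The mean of the type means also correlated with the lincRNA share of the same samples (r = 0.823, rho = 0.739, adjusted p = 0.00024 and 0.00078, permutation tests), so both non-coding shares were high in the same mice. It correlated as well with the percent of reads that mapped antisense to any annotated gene (r = 0.705, rho = 0.733, adjusted p = 0.0011 and 0.00078, permutation tests), a value of the whole library that spanned only 0.8% to 1.1% and is not the share of antisense genes. Without the 2 samples farthest from the median, r was 0.741 and 0.670. Median UMIs per cell (r = -0.220), the estimated ambient RNA fraction (r = -0.394) and the percent of intronic reads (r = -0.226) did not pass the threshold. After the mean of each time point was removed, r was -0.642 for the ambient RNA fraction, 0.195 for UMIs per cell and -0.0777 for intronic reads. Whether saturation sets the share was not tested.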

How the data were processed

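Single-cell RNA sequencing of 21 tibialis anterior samples was analysed, 1 mouse per sample, grouped by the injury labels. The authors aligned 10x Chromium 3′ v3 reads to mm10 with Cell Ranger 3.1.0, subtracted ambient RNA with SoupX, filtered cells with Seurat 3.1.5 (version per the labels) and removed doublets with DoubletFinder, and all 87822 cells in the tables are marked as singlets. The UMI totals that the authors deposited are expected counts, not whole after ambient correction and not normalized. The deposited numbers of genes per cell are counts. The deposited percent values are shares of a cell's corrected UMIs in a gene class or, per sample, the saturation and read shares of the aligner. The ambient RNA estimate is a fraction that the authors deposited per sample. The gene list behind the antisense percent, the annotation release and the strand setting are not given in the sources used here.

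Shares were averaged over the cells of a Harmony type or of a myogenic state in a sample, with at least 10 cells, and no further filter was applied. Antisense UMIs were the share times the UMI total. Tests were run over samples in Python 3.11.15 using scipy 1.17.1, pandas 2.3.3 and numpy 2.4.6 (figures by matplotlib 3.10.9). Differences within samples used two-sided exact sign-flip tests with at least 6 samples, for which the smallest p is 0.0312 at 6. Time courses used permutation tests of F with 100000 resamples (smallest p 1e-05), for types with at least 2 samples in uninjured mice and in at least 4 of the 6 time points. Pairs of time points used two-sided exact permutation tests. Families were adjusted by the Benjamini-Hochberg method at 0.05. Nothing in the sources pools animals, and cells of 1 mouse were never treated as replicates. The tests were checked on simulated data.

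All types are named with their level, and per-sample values are given for the 3 highest and 3 lowest types, the states, and types past a time test. Types just short of a call, neutrophils over time and arterial cells and tenocytes were named after their values were seen. The types, states and tests were chosen with earlier results of these data known. Alternatives were other summaries of a type (summed UMIs, median, without the top 1% of cells), other denominators, stricter filters on cells (at least 1000 genes, 2000 UMIs and at most 15% mitochondrial UMIs), 2 windows of UMIs, a fixed set of 6 reference types, minimums of 5 and 20 cells, log2 shares, labels of BBKNN and Scanorama, a block for the replicate letter, and all samples but 1 in turn.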

Additional observations from a re-analysis of the deposited data

Results flagged for a closer look

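Comparisons of time points were noted because the test over all 6 time points passed for 2 cell types, each set against the other types of its sample. Arterial endothelial cells (adjusted p = 0.00592, permutation test over 21 samples) lay farthest from uninjured mice at 3.5 dpi, by 0.0301 percentage points. Tenocytes (adjusted p = 0.0485, permutation test over 19 samples) lay farthest at 2 dpi, by 0.0250. Both types were among 16 types tested and neither passed in absolute share or against the 6 types found in every sample (adjusted p = 0.105 and 0.0894, permutation test). The set of other types changed with time, from 11 to 18 types in uninjured samples to 21 to 23 at 3.5 dpi. In the 21 groups of 4 or more samples that were tested, 0 samples stood apart by Dixon's test. These groups did not cover every cell type at every time point. At 1 dpi, pro-remodeling FAPs held 0.0923% in replicate B and 0.0598% to 0.0604% in the other samples. Replicate B thus lay far from the rest. The count of 0 does not clear it, since the groups tested were not listed by name.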

How the results depend on the processing

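The count of 17 cell types apart from the rest was 12 to 17 under 15 other settings and 15 to 18 without each sample in turn, and the 13 types in the ratio to lincRNA were 11 or 12, and 12 to 14. The 0 types that varied over time became 1 with summed UMIs, 2 with a minimum of 5 cells, 1 with Scanorama labels (committed progenitors, adjusted p = 0.00176, permutation test) and 2 against the other types of a sample, stayed at 0 against the 6 types found in every sample, and was 0 to 1 without each sample. Of the 14 pairs of myogenic states, 0 passed with the stricter filter (12 testable), 2 among cells of 3000 to 10000 UMIs (3 testable), 6 with a minimum of 20 cells (6 testable) and 0 among cells of 8000 to 30000 UMIs (1 testable), 13 with summed UMIs, 13 with the median over cells, 11 without ribosomal protein UMIs, and 12 to 14 without each sample. The difference between committed myoblasts and fusing myocytes turned to -0.00124 with the stricter filter and passed with the median over cells (0.0083) and without ribosomal protein UMIs (0.00839). The 4 alternatives that filtered cells tested fewer pairs in fewer samples, which raises the smallest p they can give. The sample mean at 3.5 dpi against uninjured mice, -0.0389 (p = 0.0222 over time, permutation test), was -0.0324 among cells of 3000 to 10000 UMIs, -0.00803 as the effect of an additive fit and -0.0137 as the mean of type means, and -0.0453 to -0.0333 without each sample. Neighbours in the order of types numbered 0 to 1 without each sample. Causes were not tested. Same-letter deviations correlated at 0.0984 on average and 22 of 48 pairs exceeded 0.1, while pairs of different letters had a negative average. Correlations of same-letter pairs took both signs, so these averages cannot decide whether replicate letters pair samples. With the letter as a replicate block, the sample mean kept -0.0389 (p = 0.0303, permutation test) and 0 types varied over time, so no call changed. Means of types with few cells and about 4 antisense UMIs per cell are limited by depth.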
